A study of Mus musculus with 16 samples.

Results

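Hyaluronan (HA) is a long sugar polymer of the extracellular matrix, and its amount in a tissue is set by enzymes that build it and enzymes that cut it. The genes described here were 9 of the 54532 listed in the expression table, chosen by name: the synthases Has1, Has2 and Has3, the hyaluronidases Hyal1, Hyal2, Hyal3 and Spam1 (which encodes PH20), the hyaluronan-degrading protein gene Cemip, and Ugdh. All 9 were found once each.

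RNA was sequenced from inguinal white adipose tissue (iWAT) of 16 male mice in 4 groups of 4, which were 8 to 10 weeks old at the start of the experiments. Has2_TG mice carried Apn-rtTA and TRE-Has2, and PH20_TG mice carried Apn-rtTA and TRE-PH20, made from the mouse Spam1 cDNA. Per the study's methods both transgenes hold mouse cDNA and a rabbit beta-globin untranslated region. Reads of a transgene and of the endogenous gene were not told apart here. Has2_WT and PH20_WT were the littermates of each line, which per the study's text were Apn-rtTA controls although the labels call them WT. All 4 groups ate chow with 200 mg/kg doxycycline for 5 days, so that the controls received the drug as well. In this system the adiponectin (Apn) promoter drives rtTA in adipocytes, and rtTA with doxycycline switches on the TRE transgene, so that induction was directed at adipocytes while the RNA came from the whole fat pad. The comparisons asked how each transgene altered the mRNA of the enzymes that make and remove HA.

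The HAS proteins sit in the plasma membrane, join UDP-glucuronic acid and UDP-N-acetylglucosamine, and extrude the growing chain. Ugdh encodes UDP-glucose dehydrogenase, which makes the UDP-glucuronic acid. HYAL2 at the cell surface cuts long chains into fragments, HYAL1 in lysosomes cuts the fragments further, and PH20 is a sperm hyaluronidase that works at neutral pH. In adipose tissue, fibroblast-like progenitor cells are a source of HA.

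The libraries held 14421692 to 26751729 reads on genes. They differed in a way that bears on every low value. In 7 libraries (Has2_WT2, Has2_WT3, Has2_TG2, PH20_WT3, PH20_TG2, PH20_TG3 and PH20_TG4) 4393 to 5578 genes had 1 to 7 reads, whereas in the other 9 libraries only 576 to 2258 did. Among protein-coding genes that averaged 5 to 10 reads in the 7 libraries, 37.6 to 68.5% were at 0 in each of the 9, against 4.67 to 17.2% in each of the 7. A 0 in those 9 libraries therefore says little about a gene of a few reads, and no upper limit is given from it. This split cut across all 4 groups but unevenly, with 3 of the 4 PH20_TG libraries and 1 of the 4 PH20_WT libraries among the 7. The label held as to adipose tissue, since the adipocyte list summed to 1928 to 5093 FPKM over the 16 libraries, with Adipoq at 751 FPKM or more in each. The depot was not checked by this list.

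A read longer than 23 bases can match the coding transcripts of only 1 synthase exactly, although the read length was not given. The longest identical stretch between coding transcripts was 23 bases for Has2 and Has3, and 17 bases for Has1 with either of the others. All of these stretches lay in coding exons (GRCm38, GENCODE vM21), and those that involve Has2 are shown as its longest runs shared with another synthase. The Has2 and Has3 stretch lies in exon 3 of both genes, at chr15:56669890-56669912 on the minus strand and chr8:106876970-106876992 on the plus strand. The Has1 and Has2 stretch lies in exon 5 of Has1 at chr17:17844198-17844214 and in exon 4 of Has2 at chr15:56668230-56668246, both on the minus strand.
Has2 and Has3: ggaggtgttggaggagatgtcca
Has1 and Has2: tacttccgagagtggct

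Among the hyaluronidases the position is different for Hyal1 and Hyal3. These neighbours overlap by 893 bases on the plus strand of chromosome 9, share an identical run of 121 bases, and both overlap Nat6, so that reads from this stretch cannot be assigned with certainty. Spam1 shares a run of 31 bases with Hyal5, a neighbour in the same gene cluster, and at most 15 bases with Hyal1, Hyal2 or Hyal3. Has2 overlaps the antisense gene Has2os by 4596 bases, and Has3 overlaps the end of Chtf8 by 704 bases on the opposite strand. The sources used here do not say whether strand was used in counting, so reads of these pairs may have been left out or exchanged.

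In the 8 control libraries Ugdh and Hyal2 were the most abundant of the 9 mRNAs per length. Ugdh averaged 9.80 ± 2.52 FPKM (SD, n = 8), Hyal2 8.85 ± 1.95, Hyal1 3.53 ± 1.16, Has2 0.598 ± 0.208 and Has3 0.389 ± 0.128. FPKM is read fragments scaled to the length of the gene's merged exons and to a total for the library. That total was 0.886 to 1.141 times the library's reads on genes, and how it was set is not given. Ugdh exceeded Hyal2 in 4 of 8 controls, so on this scale these neighbours did not differ beyond their spread, while Hyal2 exceeded Hyal1 and Hyal1 exceeded Has2 in 8 of 8. Has2 exceeded Has3 in 7 of 8. Has1 ranged from 0 to 0.830 FPKM, Hyal3 from 0 to 0.484 and Cemip from 0 to 0.0930, and Has1 exceeded Hyal3 in 3 of 8. Spam1 was listed at 0 in all 8 controls. The merged exon length used for Has1 (4518 bases) and Ugdh (6752 bases) is far above that of the longest coding transcript (2095 and 2550 bases). Scaled to that transcript, the control mean was 25.96 for Ugdh and 9.82 for Hyal2, and Ugdh was then the higher in 8 of 8 controls, so that their order depends on the length used. The Has1 mean on this scale was 0.444, slightly above Has3 at 0.420, but Has3 was the higher in 5 of 8 controls. The Has1 mean includes its highest control, PH20_WT4, at 0.830 FPKM before this scaling.

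Has2, the synthase carried by the transgene, was higher in every Has2_TG library than in every Has2_WT library. It stood at 0.806, 0.474, 0.417 and 0.643 FPKM in Has2_WT1 to Has2_WT4, from 30 to 93 reads each. In Has2_TG1 to Has2_TG4 it stood at 2.28, 1.86, 3.24 and 2.97 FPKM, from 131 to 263 reads. The lowest Has2_TG value was thus above the highest control. These FPKM hold endogenous and transgene reads together, so the fold given next is not that of the transgene alone. The group means were 2.59 ± 0.631 and 0.585 ± 0.176 FPKM (SD, n = 4 each), a log2 difference of 1.98 (SE 0.30, 95% interval 1.30 to 2.66) in limma on log2(FPKM + 0.1), or 3.93-fold on that scale. The limma p was 8.0e-05, with an adjusted p of 0.054 over the 12606 genes tested. The exact permutation p of the FPKM difference was 0.0286 (two-sided), the smallest that 4 against 4 can give. The adjusted p ran from 0.0333 to 0.340 over the other settings tried, except for a progenitor covariate (0.834).

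The other 2 synthases were low. Has1 was listed at 0, 0.102, 0.169 and 0.127 FPKM in Has2_WT1 to Has2_WT4, from 0 to 13 reads. It reached 0.211, 0.467, 0.520 and 0.307 FPKM in Has2_TG1 to Has2_TG4, from 24 to 44 reads. These groups did not overlap and the exact permutation p was 0.0286, but Has1 had 164 reads in all over these 8 libraries, under the mean of 50 set for the limma fit. Without that minimum its log2 difference was 1.29 (SE 0.54), with a limma p of 0.0418 and an adjusted p of 0.741. Has3 stood at 0.311, 0.378, 0.305 and 0.238 FPKM in Has2_WT1 to Has2_WT4 and at 0.504, 0.378, 0.871 and 0.420 FPKM in Has2_TG1 to Has2_TG4. The groups did not overlap, but only barely, since Has2_WT2 and Has2_TG2 had 42 and 40 reads at nearly the same FPKM. The Has3 log2 difference of 0.61 (SE 0.40, 95% interval -0.29 to 1.51) did not pass the limma test (unadjusted p of 0.163, adjusted p of 0.676), although the exact permutation p was 0.0286. With no trend in the variance the Has3 limma p was 0.0358, and with median-of-ratios scaling its groups overlapped and the exact permutation p was 0.0571.

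Ugdh rose with Has2. It stood at 6.12, 7.18, 9.33 and 10.9 FPKM in Has2_WT1 to Has2_WT4. In Has2_TG1 to Has2_TG4 it stood at 16.2, 13.1, 18.0 and 15.02 FPKM, above every control. The means were 15.6 ± 2.05 and 8.38 ± 2.14 FPKM (SD, n = 4 each), a log2 difference of 0.91 (SE 0.20, 95% interval 0.46 to 1.37). The limma p was 0.00127 with an adjusted p of 0.105, and the exact permutation p was 0.0286. The adjusted p ran from 0.0488 to 0.413 over the other settings tried, except for the progenitor covariate (0.930).

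The hyaluronidases did not pass the test in Has2_TG. Hyal2 stood at 6.64, 9.46, 11.6 and 9.38 FPKM in Has2_WT1 to Has2_WT4 and at 10.8, 11.1, 9.83 and 6.93 FPKM in Has2_TG1 to Has2_TG4. These ranges overlapped almost entirely. The Hyal2 log2 difference was 0.06, with a 95% interval of -0.43 to 0.55 (limma adjusted p = 0.960). Hyal1 stood at 4.50, 4.10, 5.44 and 2.91 FPKM in Has2_WT1 to Has2_WT4 and at 2.93, 1.82, 2.43 and 5.37 FPKM in Has2_TG1 to Has2_TG4. Has2_TG1 to Has2_TG3 lay near or under the lowest control, whereas Has2_TG4 was close to the highest. The Hyal1 log2 difference was -0.50, with an interval of -1.24 to 0.24 (limma adjusted p = 0.676). Without Has2_TG4 it was -0.79 with a limma p of 0.0209 and an adjusted p of 0.548, so that this library decided on which side of the threshold Hyal1 fell.

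Of the 5 members with enough reads for limma in the Has2 study, 2 (Has2 and Ugdh) were called higher and 0 lower at the study's threshold of an unadjusted p under 0.05. Over all 12606 genes tested, 6.25% were called higher and 3.75% lower, and 13 had an adjusted p under 0.05. None of these 13 was a member. Of the 5 members tested, 3 (Has2, Has3 and Ugdh) had groups without overlap, against 6.19% of the 12606 genes tested. Has1, which was not among the genes tested, did not overlap either. Has2 is the gene that the transgene carries, so its call and its lack of overlap were built into the design. Apart from Has2 and Has3, Ugdh was called and had groups without overlap, and neither held for Hyal1 and Hyal2. The median log2 difference was 0.61 over the 5 members tested and -0.03 over all genes. That median is the value of Has3, which had 158 reads in all in Has2_WT and 281 in Has2_TG. Has3 thus reached the minimum of reads only through Has2_TG. The median and the count without overlap therefore depend in part on the group where Has3 is high.

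**Figure D1:**
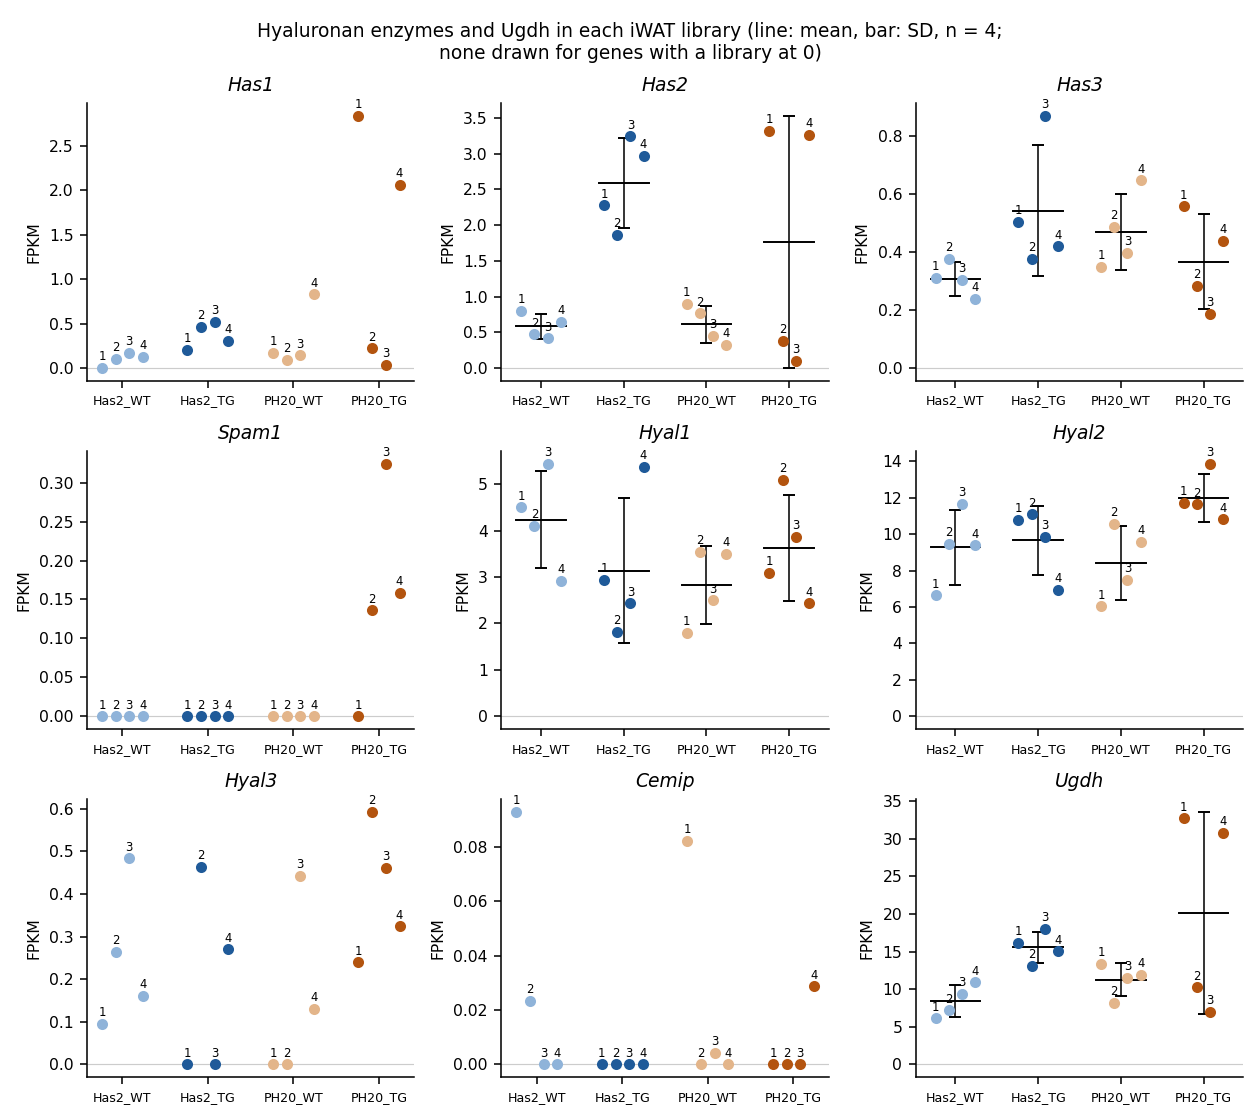
FPKM of the 9 genes in each of the 16 iWAT libraries, 1 panel per gene with its own axis from 0, groups along the x axis and points numbered by library; horizontal lines are group means and vertical bars SD (n = 4), drawn only for genes with no library at 0. Has2_TG lies wholly above Has2_WT for Has2 (1.86 to 3.24 against 0.417 to 0.806) and Ugdh, and PH20_TG1 and PH20_TG4 stand far above PH20_TG2 and PH20_TG3 for Has1, Has2 and Ugdh.

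Spam1, the gene carried by the PH20 transgene, was detected in 3 of the 4 PH20_TG libraries and in no other library. It stood at 0.136, 0.324 and 0.158 FPKM in PH20_TG2, PH20_TG3 and PH20_TG4, which is 6, 12 and 5 reads. It was listed at 0 in PH20_TG1 and in all 12 libraries of the other groups. The 0 in PH20_TG1 is not informative, since 52.3% of genes averaging 5 to 10 reads in the 7 libraries with many low counts were at 0 there. Of the 13 libraries at 0, 9 are of the kind in which such genes are often missing. The other 4 are Has2_WT2, Has2_WT3, Has2_TG2 and PH20_WT3, where 3 reads correspond to 0.0686 to 0.0815 FPKM of Spam1, under each of the 3 detected values. The exact permutation p over the 8 libraries of the PH20 study was 0.143, and Spam1 was far under the 50 reads asked for in limma. Without that minimum its limma p was 0.0208 with an adjusted p of 0.817, and no fold is given because the controls are at 0.

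Spam1 made up at most 1.75% of the summed hyaluronidase FPKM in any library. The other sperm genes were near 0, with Tnp1, Akap4, Odf1 and Prm2 at 0 in all 16 libraries and a list sum of at most 0.760 FPKM. Hyal5, which shares the 31-base run with Spam1, had no read in the 3 libraries with Spam1 reads. Hyal6, of the same cluster, had 23 reads in PH20_TG1 and 3 in PH20_WT3.

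Hyal2 was the member that rose in PH20_TG. It stood at 6.03, 10.6, 7.47 and 9.59 FPKM in PH20_WT1 to PH20_WT4. In PH20_TG1 to PH20_TG4 it stood at 11.7, 11.6, 13.9 and 10.8 FPKM, and the lowest of these was just above the highest control. The means were 12.0 ± 1.31 and 8.42 ± 2.05 FPKM (SD, n = 4 each), a log2 difference of 0.53 (SE 0.19, 95% interval 0.11 to 0.96). The limma p was 0.0198, the adjusted p was 0.702 over 12532 genes, and the exact permutation p was 0.0286. The Hyal2 limma p rose to 0.0537 without PH20_WT3 and to 0.0561 without PH20_TG3. Within the libraries with many low counts the log2 difference was 0.68 (3 against 1), and within the others it was 0.46 (1 against 3).

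Hyal1 stood at 1.79, 3.53, 2.50 and 3.498 FPKM in PH20_WT1 to PH20_WT4 and at 3.09, 5.08, 3.87 and 2.43 FPKM in PH20_TG1 to PH20_TG4. The groups overlapped, and the log2 difference of 0.34 had an interval of -0.31 to 0.99 (limma adjusted p = 0.812). Hyal3, whose product has little known hyaluronidase activity of its own, was listed at 0, 0, 0.442 and 0.130 FPKM in PH20_WT1 to PH20_WT4 and at 0.240, 0.594, 0.462 and 0.324 FPKM in PH20_TG1 to PH20_TG4. It had 0 to 23 reads, both of its zeros in PH20_WT fell in libraries with few low counts, and the exact permutation p was 0.114. In the Has2 study Hyal3 was listed at 0.0942 to 0.484 FPKM in Has2_WT and at 0 to 0.464 FPKM in Has2_TG.

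Cemip, which encodes a protein needed for HA breakdown in fibroblasts, was close to 0 throughout. It had 31 reads in Has2_WT1, 23 in PH20_WT1, 5 in each of Has2_WT2 and PH20_TG4, 1 in PH20_WT3 and 0 in the other 11 libraries, among them all 4 Has2_TG libraries. The exact permutation p was 0.429 in the Has2 study and 0.714 in the PH20 study. Has2_WT1 and PH20_WT1 were libraries with few low counts. So were Has2_TG1, Has2_TG3 and Has2_TG4, where a 0 says little.

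The synthases and Ugdh split the PH20_TG libraries into pairs. Has2 stood at 0.897, 0.765, 0.455 and 0.330 FPKM in PH20_WT1 to PH20_WT4 and at 3.32, 0.380, 0.0990 and 3.26 FPKM in PH20_TG1 to PH20_TG4. PH20_TG1 and PH20_TG4 were therefore as high in Has2 as the highest Has2_TG libraries, which carry a Has2 transgene, while PH20_TG3 with 7 reads had the lowest Has2 of all 16 libraries. Has1 followed the same split, at 0.174, 0.0985, 0.146 and 0.830 FPKM in PH20_WT1 to PH20_WT4 and at 2.84, 0.223, 0.0398 and 2.07 FPKM in PH20_TG1 to PH20_TG4. Its reads in PH20_TG1 and PH20_TG4 were 220 and 133, against 3 in PH20_TG3. Ugdh stood at 13.4, 8.16, 11.5 and 11.9 FPKM in PH20_WT1 to PH20_WT4 and at 32.7, 10.2, 6.97 and 30.7 FPKM in PH20_TG1 to PH20_TG4. Has3 showed the same order at a smaller scale, with 0.349, 0.488, 0.397 and 0.647 FPKM in PH20_WT1 to PH20_WT4 and 0.558, 0.284, 0.188 and 0.440 FPKM in PH20_TG1 to PH20_TG4.

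None of these 4 genes passed a test in the PH20 study. The log2 difference was 1.13 for Has1 (SE 1.01), 0.60 for Has2 (SE 0.91) and 0.56 for Ugdh (SE 0.49), with adjusted limma p-values of 0.816 to 0.890. The intervals were wide, from -1.15 to 3.42 for Has1, from -1.45 to 2.66 for Has2 and from -0.54 to 1.67 for Ugdh. Without PH20_TG3 the Ugdh log2 difference was 0.97 with a limma p of 0.0433 (adjusted p = 0.946). The Has2 log2 difference ranged from 0.02 to 1.39 when single libraries were left out. Has3 averaged 46.5 reads in these libraries, under the minimum, and its exact permutation p was 0.371.

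At the study's threshold 1 of the 5 members tested in the PH20 study (Hyal2) was called higher and 0 lower. Over the 12532 genes tested, 3.20% were called higher and 3.39% lower, and 0 had an adjusted p under 0.05 in limma. Calls at an unadjusted p under 0.05 numbered 826 in limma and 812 with voom weights on the recovered reads, where again 0 passed the adjustment. Of the 5 members tested, 1 (Hyal2) had groups without overlap, against 4.54% of the genes tested. The median log2 difference was 0.56 over the 5 members tested and 0.01 over all genes. Has1 and Has2 had 97 and 198 reads in all in PH20_WT against 376 and 477 in PH20_TG. They thus reached the minimum of reads only through PH20_TG. Has3, which the minimum left out, had a log2 difference of -0.33 without it. The median therefore depends on which members the minimum let through.

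**Figure D2:**
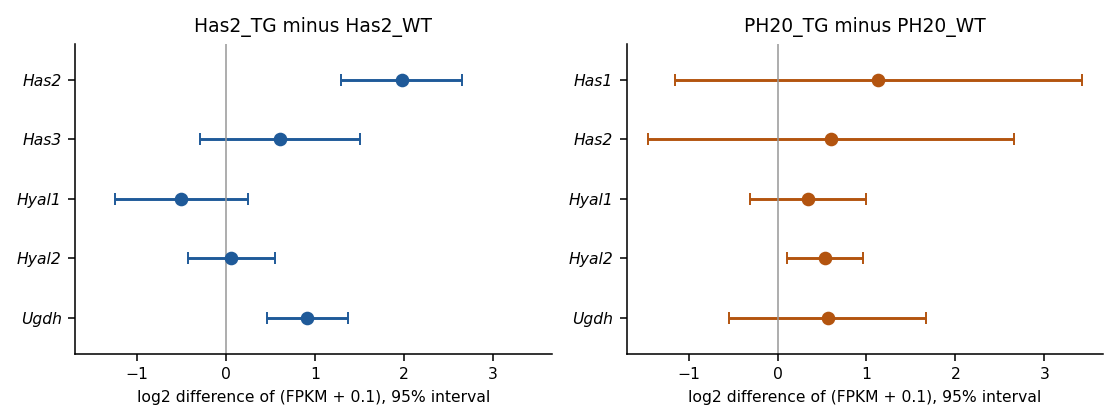
Log2 difference of FPKM + 0.1 between transgenic and control libraries (points) with 95% intervals from limma (bars), for the members with enough reads in the Has2 study (left) and the PH20 study (right), 4 libraries per group. The intervals of Has2 and Ugdh on the left and of Hyal2 on the right lie above 0, and those of Has1, Has2 and Ugdh on the right are the widest.

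The difference between the 2 transgene effects was tested over all 16 libraries. It was 1.37 for Has2 (SE 1.005), 0.94 for Has3 (SE 0.49), -0.84 for Hyal1 (SE 0.46), -0.47 for Hyal2 (SE 0.29) and 0.35 for Ugdh (SE 0.56), as the Has2 effect minus the PH20 effect on the log2 scale. None of these 5 members was called, against 7.70% of the 12593 genes tested, and their unadjusted limma p-values were 0.0741 to 0.542 (adjusted 0.689 to 0.931). The Has2 effect on Has2 was thus not shown to differ from the PH20 effect. The interval of this difference ran from -0.77 to 3.51.

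The 2 control groups gave the background between the lines. Has2_WT minus PH20_WT was -0.01 for Has2 (SE 0.38, 95% interval -0.87 to 0.85), 0.58 for Hyal1 (SE 0.28, interval -0.04 to 1.21), 0.14 for Hyal2 (SE 0.23, interval -0.37 to 0.66) and -0.43 for Ugdh (SE 0.22, interval -0.94 to 0.08) on the log2 scale. None of these 4 members was called (unadjusted limma p-values of 0.0641 to 0.978), against 10.1% of 12673 genes.

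The mRNAs that make and that remove HA were also summed per library. The summed synthase FPKM was 0.891 to 1.116 in Has2_WT, 2.71 to 4.63 in Has2_TG, 0.998 to 1.81 in PH20_WT, and 6.72, 0.886, 0.327 and 5.77 in PH20_TG1 to PH20_TG4. The summed hyaluronidase and Cemip FPKM was 11.3 to 17.6 in Has2_WT, 12.3 to 13.7 in Has2_TG, 7.91 to 14.1 in PH20_WT and 13.8 to 18.5 in PH20_TG. The ratio of the second sum to the first was 10.1 to 19.7 in Has2_WT and 2.65 to 4.94 in Has2_TG. In PH20_TG it was 2.24, 19.7, 56.7 and 2.38, which bracketed the 5.57 to 10.4 of PH20_WT on both sides. These ratios are of mRNA per length and say nothing of enzyme activity.

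Has2 made up 68.8 to 80.3% of the synthase FPKM in Has2_TG and 46.8 to 72.2% in Has2_WT. In PH20_TG1 and PH20_TG4 the high total was shared between Has2 (49.4 and 56.6%) and Has1 (42.3 and 35.8%), whereas Has1 was 7.05 to 17.2% of the total in Has2_TG. PH20_WT4 also had a large Has1 share, 45.9%, at a total of 1.81 FPKM. Hyal2 was the larger hyaluronidase in all 16 libraries, at 1.29 to 6.10 times Hyal1.

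**Figure D3:**
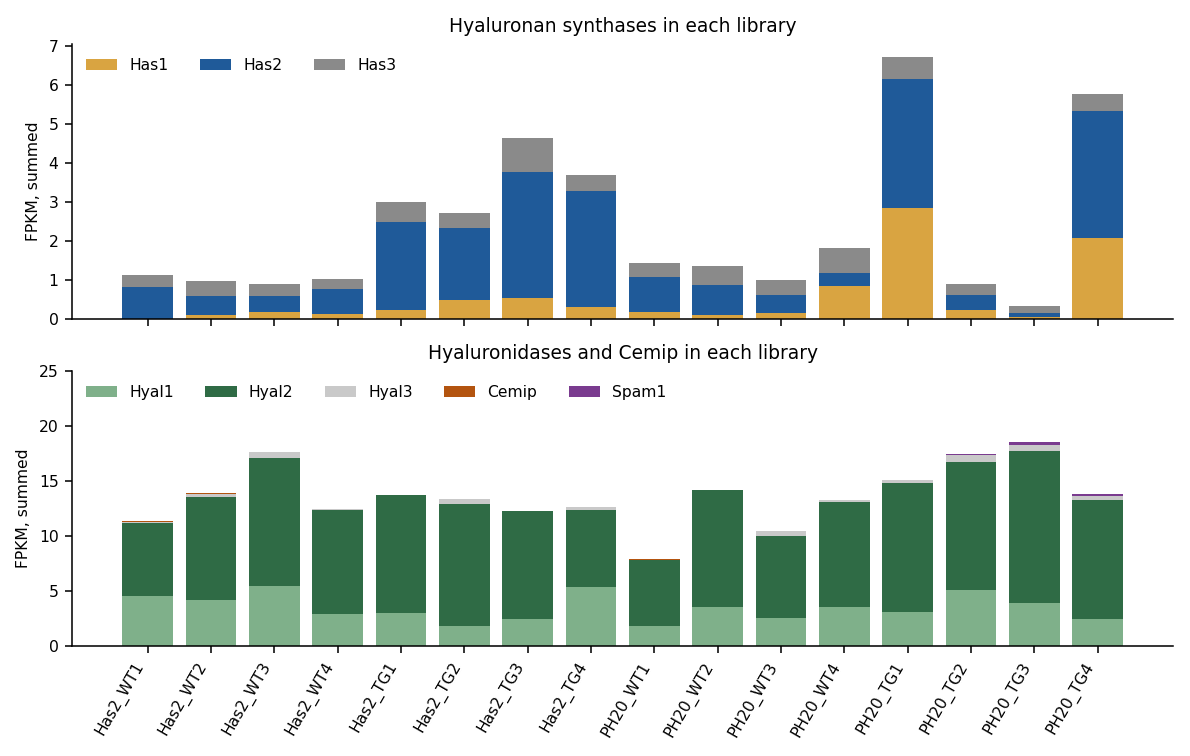
Summed FPKM of Has1, Has2 and Has3 (top) and of Hyal1, Hyal2, Hyal3, Cemip and Spam1 (bottom) as stacked bars from 0, 1 bar per library. The synthase bars reach 2.71 to 4.63 in Has2_TG and 6.72 and 5.77 in PH20_TG1 and PH20_TG4 while those of PH20_TG2 and PH20_TG3 are 0.886 and 0.327, and the hyaluronidase bars stay between 7.91 and 18.5.

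A list of 8 adipocyte progenitor markers (Pdgfra, Dpp4, Pi16, Cd34, Ly6a, Dcn, Col1a1 and Icam1) moved with the synthases and Ugdh in its sum. Its summed level was 236 to 487 FPKM in Has2_WT and 711 to 1198 FPKM in Has2_TG. There 7 of the 8 genes were called higher, against 6.25% of all genes tested. In the PH20 study the sum was 312 to 1036 FPKM in PH20_WT and 1274, 236, 314 and 1220 FPKM in PH20_TG1 to PH20_TG4. In that study 0 of 8 were called. The pair of PH20_TG libraries high in Has1, Has2 and Ugdh was thus the pair high in the progenitor sum. Icam1 was the marker not called higher in Has2_TG. It stood at 5.98, 5.67, 1.65 and 2.22 FPKM in Has2_WT1 to Has2_WT4. In Has2_TG1 to Has2_TG4 it stood at 2.22, 2.13, 2.18 and 3.26 FPKM, and its highest value was 8.26 FPKM in PH20_WT1. The sum weighs genes by level, with Col1a1 at 458 of the 1198 FPKM in Has2_TG3. In bulk tissue, more cells of a type and more RNA per cell cannot be told apart.

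Divided by the progenitor sum, Has2 was 1.32 to 2.60 FPKM per 1000 FPKM of the list in Has2_WT and 2.57 to 3.20 in Has2_TG, ranges that met at their ends. Ugdh on the same scale was 19.7 to 39.6 in Has2_WT and 14.8 to 22.7 in Has2_TG. With the log of the progenitor sum as a covariate, an alternative chosen after the data were seen, the log2 difference in the Has2 study was 1.02 for Has2 (SE 0.63, limma adjusted p = 0.834) and 0.37 for Ugdh (SE 0.44, adjusted p = 0.930). Both calls were lost in that fit, with unadjusted limma p-values of 0.140 and 0.423. The progenitor sums of the groups did not overlap (236 to 487 FPKM in Has2_WT, 711 to 1198 in Has2_TG). This fit therefore cannot separate the covariate from the transgene well. The SE rose from 0.30 to 0.63 for Has2 and from 0.20 to 0.44 for Ugdh, and no conclusion is drawn from the lost calls. PH20_WT1 had a progenitor sum of 1036 FPKM with Has2 at 0.897 FPKM, and Has2_TG4, which carries the transgene, had 1013 FPKM with Has2 at 2.97 FPKM. In the PH20 study the same covariate gave a log2 difference of 0.64 for Ugdh (SE 0.21), with an unadjusted limma p of 0.0156 and an adjusted p of 0.354. The part of cell composition in these differences was not tested.

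**Figure D4:**
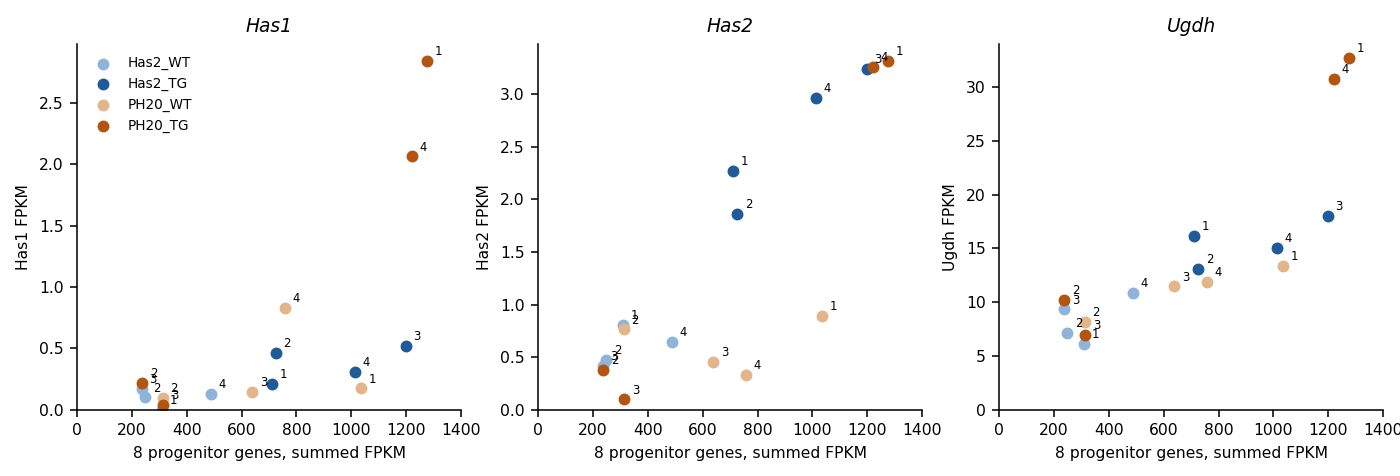
Has1 (left), Has2 (middle) and Ugdh (right) in FPKM against the summed FPKM of 8 progenitor markers, 1 point per library numbered within its group, colours for the 4 groups, linear axes from 0. PH20_TG1 and PH20_TG4 lie at the right (1274 and 1220) and at the top for all 3 genes, and PH20_WT1 lies at 1036 with Has2 at 0.897.

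Other marker lists moved as well. The macrophage list summed to 81.1 to 152 FPKM in Has2_TG and 39.9 to 97.4 in Has2_WT, and reached 296 FPKM in PH20_TG1. Of its 5 genes, 4 were called higher in Has2_TG, against 6.25% of all genes tested. B cell markers summed to 220 and 201 FPKM in Has2_WT1 and Has2_WT2, and to 253 and 99.1 in PH20_WT1 and PH20_WT3. In the other control libraries they were at 1.84 to 5.19 FPKM, near the transgenic libraries (at most 3.08). T cell markers were high in the same control libraries, reaching 126 FPKM in Has2_WT1 and 176 in PH20_WT1. They were at most 8.78 FPKM in the other controls and 8.39 in the transgenic libraries. Skeletal muscle markers were 185 to 792 FPKM in PH20_WT and 7.92 to 224 in PH20_TG, and 7.92 to 661 in Has2_TG. In PH20_TG 6 of 6 were called lower, against 3.39% of all genes tested. Lymph node stroma markers reached 54.3 FPKM in Has2_WT1 and 81.5 in PH20_WT3. They were at most 6.88 FPKM in the controls low in B cell markers and 11.1 in transgenic libraries. Adipocyte (0 of 6 called) and endothelial markers (0 of 5) were not called in either study, epithelial markers summed to at most 10.3 FPKM and mesothelial markers to at most 2.46. Their part in the members' differences was not tested.

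The genes of the rest of the pathway were taken as 4 lists. Of 14 tested genes that supply UDP-sugars, 3 were called higher and 1 lower in Has2_TG, against 6.25% and 3.75% of all genes tested. The list's median log2 difference was 0.14, against -0.03 over all genes. Gfpt2, which with Gfpt1 catalyses the first step towards UDP-N-acetylglucosamine, stood at 4.23, 3.88, 4.96 and 9.38 FPKM in Has2_WT1 to Has2_WT4 and at 19.99, 14.2, 29.5 and 25.1 FPKM in Has2_TG1 to Has2_TG4. The groups did not overlap, and the log2 difference was 2.003 (SE 0.31), with a limma adjusted p = 0.054. Pgm1 was higher by 0.61 on the log2 scale (SE 0.24, limma adjusted p = 0.428). Hk2, a hexokinase, was lower, with a log2 difference of -0.67 (SE 0.27, limma adjusted p = 0.432). In PH20_TG 0 of these 14 genes were called, against 3.20% higher and 3.39% lower over all genes tested. Gfpt2 stood at 40.3, 3.75, 1.31 and 32.9 FPKM in PH20_TG1 to PH20_TG4, the same split as Ugdh.

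Over all genes tested in the Has2 study, 6.25% were called higher and 3.75% lower. Outside UDP-sugar supply, 1 of 4 tested genes for other HA-degrading enzymes was called higher in Has2_TG. This was Hexa, a lysosomal hexosaminidase subunit, with a log2 difference of 0.37 (SE 0.16, adjusted p = 0.499). Of 6 tested HA receptors 2 were called higher, namely Stab1 (log2 difference 0.54, SE 0.23, adjusted p = 0.486) and Lyve1 (0.82, SE 0.36, adjusted p = 0.490), both of which are also expressed by tissue macrophages. Of 7 tested HA-binding proteins 2 were called higher and 1 lower. Tnfaip6, which loads heavy chains onto HA, changed by 1.80 (SE 0.32, adjusted p = 0.0716), Vcan, a matrix proteoglycan, by 1.13 (SE 0.34, adjusted p = 0.264), and Ncan, a proteoglycan best known from brain, by -1.13 (SE 0.40, adjusted p = 0.364).

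In PH20_TG, 0 genes of the breakdown and receptor lists were called. Ncan was the 1 of 6 tested binding-protein genes called, against 3.20% of all genes called higher. Its log2 difference was 1.45 (SE 0.53, limma adjusted p = 0.703). The control groups differed in Ncan by 2.25 (SE 0.39), in Hk2 by 1.41 (SE 0.34) and in Gfpt2 by -1.06 (SE 0.39), as Has2_WT minus PH20_WT, with adjusted p-values of 0.135 to 0.451. The differences between the transgene effects were called for Ncan (-2.57, SE 0.69), Hk2 (-1.32, SE 0.52) and Lyve1 (2.38, SE 1.01), with adjusted p-values of 0.567 to 0.614.

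Genes whose levels followed the members most closely were ranked by the correlation of log2(FPKM + 0.1) over the 16 libraries after the group means were taken out, among 12593 genes. The 16 points share library depth and tissue make-up, so these values describe the libraries only. For Ugdh the closest were Gfpt2 (Pearson r = 0.978, Spearman rho = 0.944), Tmem100 (r = 0.971, rho = 0.891) and Procr (r = 0.964, rho = 0.891), and Gfpt2 stayed at r = 0.952 without PH20_TG1 and PH20_TG3. For Has2 they were Dnm1 (r = 0.920, rho = 0.762), Scara3 (r = 0.913, rho = 0.782) and Fndc1 (r = 0.912, rho = 0.773), which fell to 0.807 to 0.837 without the same pair. Has2 and Ugdh had r = 0.842 and rho = 0.574 with each other.

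The other members followed different genes. Has3 was closest to Kdelr2 (r = 0.902, rho = 0.888), Msantd2 (r = 0.868) and Slc6a8 (r = 0.848). Hyal1 was closest to Ednra (r = 0.885, rho = 0.850), Nod1 (r = 0.863) and Abcc9 (r = 0.8285), and Hyal2 to Sirt3 (r = 0.949, rho = 0.950), Mindy3 (r = 0.918) and Sgcb (r = 0.905). Hyal1 and Hyal2 had r = 0.0496 with each other, and r of -0.353 and -0.386 with Has2.

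The antisense gene Has2os did not follow Has2 in every library. It stood at 1.44, 0.669, 0.760 and 0.836 FPKM in Has2_WT1 to Has2_WT4 and at 1.10, 1.89, 7.15 and 2.67 FPKM in Has2_TG1 to Has2_TG4. It was also high in PH20_WT1 at 4.32 FPKM, where Has2 was 0.897. Whether reads of this locus were left out or moved between its strands was not tested.

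Promoter windows were taken from RefSeq (GRCm38.p6) for the 7 of 9 members in that table (Has2 and Has3 have no entry and were not searched), as the 250 bases before the start site, and searched on both strands. The palindrome TGACGTCA, the cAMP response element, was found in Has1 alone of the 7, starting 83 bases before its start site, and in 1.55% of the 32851 promoters of this length. The GC box GGGCGG was found in Hyal1, Hyal2, Hyal3, Cemip, Ugdh and Gfpt2 and in 32.7% of all. TATAAA was found in Cemip alone of the 7 (12.4% of all), CCAAT in Has1, Hyal1 and Gfpt2 (33.8%), and CACGTG in none of them (6.02%). Has1, Ugdh and Gfpt2 are shown because their levels were high together in PH20_TG1 and PH20_TG4. The windows are chr17:17855206-17855438 (minus strand) for Has1, chr5:65435950-65436092 (minus strand) for Ugdh and chr11:49793905-49794154 (plus strand) for Gfpt2. Bases within an annotated exon of the gene were left out of Has1 (17 bases) and Ugdh (107 bases), and capitals mark the cAMP response element in Has1 and GC boxes on either strand in the others. A match is a description of the letters and not a site.
Has1: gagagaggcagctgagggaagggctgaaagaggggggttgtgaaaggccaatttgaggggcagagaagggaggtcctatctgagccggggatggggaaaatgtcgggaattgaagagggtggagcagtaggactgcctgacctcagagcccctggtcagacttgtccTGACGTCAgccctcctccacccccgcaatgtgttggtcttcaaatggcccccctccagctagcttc
Ugdh: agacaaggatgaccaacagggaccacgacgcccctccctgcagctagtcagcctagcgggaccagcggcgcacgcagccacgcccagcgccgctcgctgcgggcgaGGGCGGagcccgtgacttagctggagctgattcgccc
Gfpt2: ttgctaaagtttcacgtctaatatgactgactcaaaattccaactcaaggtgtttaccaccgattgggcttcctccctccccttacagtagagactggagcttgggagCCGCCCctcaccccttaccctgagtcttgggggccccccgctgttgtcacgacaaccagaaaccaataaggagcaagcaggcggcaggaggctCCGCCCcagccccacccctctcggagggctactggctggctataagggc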

How the data were processed

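Total RNA from iWAT was made into TruSeq libraries. Per the labels and the study's methods, the authors aligned reads with STAR 2.7.9a to GRCm38 with GENCODE, and deposited FPKM per gene with gene length and coordinates. Whether replicates of a group shared a cage or batch is not given, so p-values measure the spread between these mice. All FPKM values came out as whole reads (tolerance 0.05), which gave the reads quoted. The study's own test was on counts, and because the deposited unit was FPKM, limma 3.58.1 (R 4.3.3) was used instead, with a variance trend, on log2(FPKM + 0.1) where recovered reads averaged 50 or more, calling p under 0.05 with Benjamini-Hochberg values beside it. Log2 folds on this scale understate low genes. Exact permutation tests used FPKM over all 70 splits. Named were the 9 members, genes overlapping them, the 3 most correlated genes per member and up to 3 called genes with the smallest p per pathway list. The fit was tested on simulated data. Members and lists were chosen with earlier results of these data known. Whether replicate numbers pair libraries is not given, and they were not taken as pairs. No 2 libraries were alike within sampling noise (lowest chi-square per degree of freedom 28.7 over 120 pairs).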

Additional observations from a re-analysis of the deposited data

Results flagged for a closer look

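Of 32 groups of 4 libraries examined for the 9 genes (4 further groups had 4 equal values), 3 held a library whose gap to its nearest neighbour, as a share of the group's range, exceeded Dixon's 95% limit for 4 values. Chance alone gives about 1 in 20 for normally distributed values. That rate does not hold for genes of a few reads with many zeros, so the flags are not set against it. Has1 was 0.830 FPKM (59 reads) in PH20_WT4, with the other 3 PH20_WT libraries at 0.0985 to 0.174, a gap of 0.897 of the range. Cemip was 0.0821 FPKM (23 reads) in PH20_WT1, against 1 read in PH20_WT3 and 0 in PH20_WT2 and PH20_WT4. Cemip was 0.0287 FPKM (5 reads) in PH20_TG4, the only PH20_TG library with a Cemip read, which by itself fixes the gap at the whole range. PH20_WT1, PH20_WT2 and PH20_WT4 are among the 9 libraries with few low counts, where a 0 carries little information.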

How the results depend on the processing

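In the Has2 study the members called higher (Has2 and Ugdh, 2) became 3 without a read minimum and 3 without the variance trend, stayed 2 without any single library, and were 0 with the log of the progenitor sum as a covariate (this covariate and the library split were added after the data were seen). In the PH20 study the 1 called higher became 2 without a read minimum and 2 with the progenitor covariate. For the difference of the effects, 0 called became 1 lower without a read minimum, 1 higher without the variance trend and 1 lower with the progenitor covariate, and for the controls 0 became 1 higher with voom. Without single libraries the calls were 0 to 1 lower in the Has2 study (Hyal1 without Has2_TG4), 0 to 1 higher in the PH20 study (0 without PH20_WT3), and 0 to 1 in each direction for the difference and for the controls. In the difference these were Hyal2 without Has2_WT1 (-0.62), Hyal1 without Has2_WT4 (-1.01), Has2_TG4 (-1.13) or PH20_TG4 (-1.01), and Has3 without PH20_TG1 (1.13). Between controls they were Hyal1 without Has2_WT4 (0.75), PH20_WT2 (0.70) or PH20_WT4 (0.70), and Ugdh without Has2_WT4 (-0.57) or PH20_WT2 (-0.57). The exact permutation test gave 2 to 4 higher in the Has2 study (2 without any 1 Has2_WT library, 3 without Has2_TG3) and 0 to 1 in the PH20 study (0 without PH20_TG2, PH20_TG3 or PH20_TG4), over fewer splits. Some signs turned. Without single libraries, Hyal2 in the Has2 study ran from -0.088 (without Has2_WT1) to 0.21. Ugdh in the difference ran from -0.058 (without PH20_TG3) to 0.68, and was -0.75 with the progenitor covariate, where it was called, and Has2 was -0.33 with it. Between controls Has2 ran from -0.23 to 0.11 and was 0.0187 with voom, 0.11 with the library split and 0.0701 with the progenitor covariate, and Hyal2 ran from -0.0019 to 0.29 and was -0.19 with that covariate. The causes were not tested.

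Counts over all genes moved by over 1.5 times in some fits. From 826 in the PH20 study they became 1305 without a read minimum, 1302 with the replicate block and 1391 with the progenitor covariate. From 1261 in the Has2 study they became 784 with that covariate, and the 13 adjusted calls ranged from 0 to 141 (without Has2_WT4). From 970 for the difference they became 1542 without a minimum, 622 with the covariate, 644 without PH20_TG2 and 638 without PH20_TG3, and from 1276 for the controls 561 with the covariate and 832 without PH20_WT3. With replicate numbers as a block, Has2 in the Has2 study kept its log2 difference of 1.98 (limma adjusted p = 0.144) and no member's call changed. Same-numbered libraries correlated at -0.176 to 0.126 in the Has2 study and -0.0418 to 0.421 in the PH20 study. PH20_TG1 and PH20_TG2 were closest to their same-numbered controls, while PH20_TG3, PH20_TG4 and every Has2_TG library were not. This check was mixed and the labels name no pairs, so the numbers were not taken as pairs. Depth limits Spam1, Cemip and Hyal3, which had at most 31 reads in any library.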
